A study of Mus musculus with 18 samples.

Results

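The genes described here are 31 genes of the oligodendrocyte lineage in mouse striatum: 24 genes of myelin and of the cells that form it, and 7 genes linked to oligodendrocyte precursors or to the lineage as a whole (Pdgfra, Cspg4, Gpr17, Olig1, Olig2, Sox10 and Bcas1). They were taken by name from a table of 29942 genes, and all 31 were present and had a mean level high enough to be tested. The study compared D-amphetamine with saline in siblings of the mouse strain 129Sv/Jae S4 that were housed in groups and matched for age and sex. Amphetamine mice received D-amphetamine hemisulfate by intraperitoneal injection, 7 mg/kg in total per day at 10 ml/kg, dissolved in 0.9% saline, and were sampled on day 1, day 7 or day 21. Saline mice received 0.9% saline and were sampled on the same days. Each of these 6 groups held 3 mice, and polyA RNA was sequenced from the striatum of each mouse, taken from left and right above the anterior commissure.

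Oligodendrocytes wrap axons in myelin, a compacted, lipid-rich membrane that speeds conduction, and in the striatum they are most numerous in the fibre bundles that cross it. They arise throughout adult life from dividing precursors that carry the receptor PDGFRα and the proteoglycan NG2, pass through a committed stage marked by GPR17, and then switch on the genes of myelin. Olig1, Olig2 and Sox10 encode transcription factors that are kept from the precursor to the mature cell, and Bcas1 is highest in newly myelinating cells, so the 7 precursor genes do not mark a single stage.

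Levels were deposited as FPKM, fragments scaled by transcript length and by the number of mapped fragments, and are therefore given per length. The number of reads per library was unknown, and the FPKM of a library summed to between 533020 and 682270. Tests were made with limma on log2(FPKM + 1) over the 13975 genes with a mean of at least 1 FPKM, with p-values adjusted over all of them and a threshold of 0.05. Every log2 difference below is on that scale, which understates the difference of genes with low values. Ppp1r1b, which encodes the striatal phosphoprotein DARPP-32, lay between 877 and 1333 FPKM in all libraries. Slc17a7, a marker of cortical excitatory neurons, ran from 1.29 to 48.4 FPKM. The number of cells of a type and the amount of RNA in each cell cannot be told apart in such bulk tissue.

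Before any comparison of groups, single animals stood apart in the level of these genes. The third amphetamine mouse of day 1 held the highest value of 26 of the 31 genes. The third amphetamine mouse of day 7 held the lowest value of 13 genes and the first saline mouse of day 7 that of 14. Both of these mice lay among the lowest 3 libraries for nearly the whole set, at 30 and 28 genes. The first saline mouse of day 1 lay there for 18 genes. The counts and medians of the treatment comparisons are therefore also given without single libraries that moved them. The label numbers of the samples were cut by hand, at gaps between them, into 3 ranges, whose meaning the labels do not state. Results with the range as a covariate rest on that cut. All 3 amphetamine mice of day 1 and 2 of the 3 saline mice of that day, all but the first, were of the highest range, in which there was no mouse of day 7. That range also held 1 mouse of each day 21 group, with numbers below those of its day 1 mice.

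**Figure D1:**
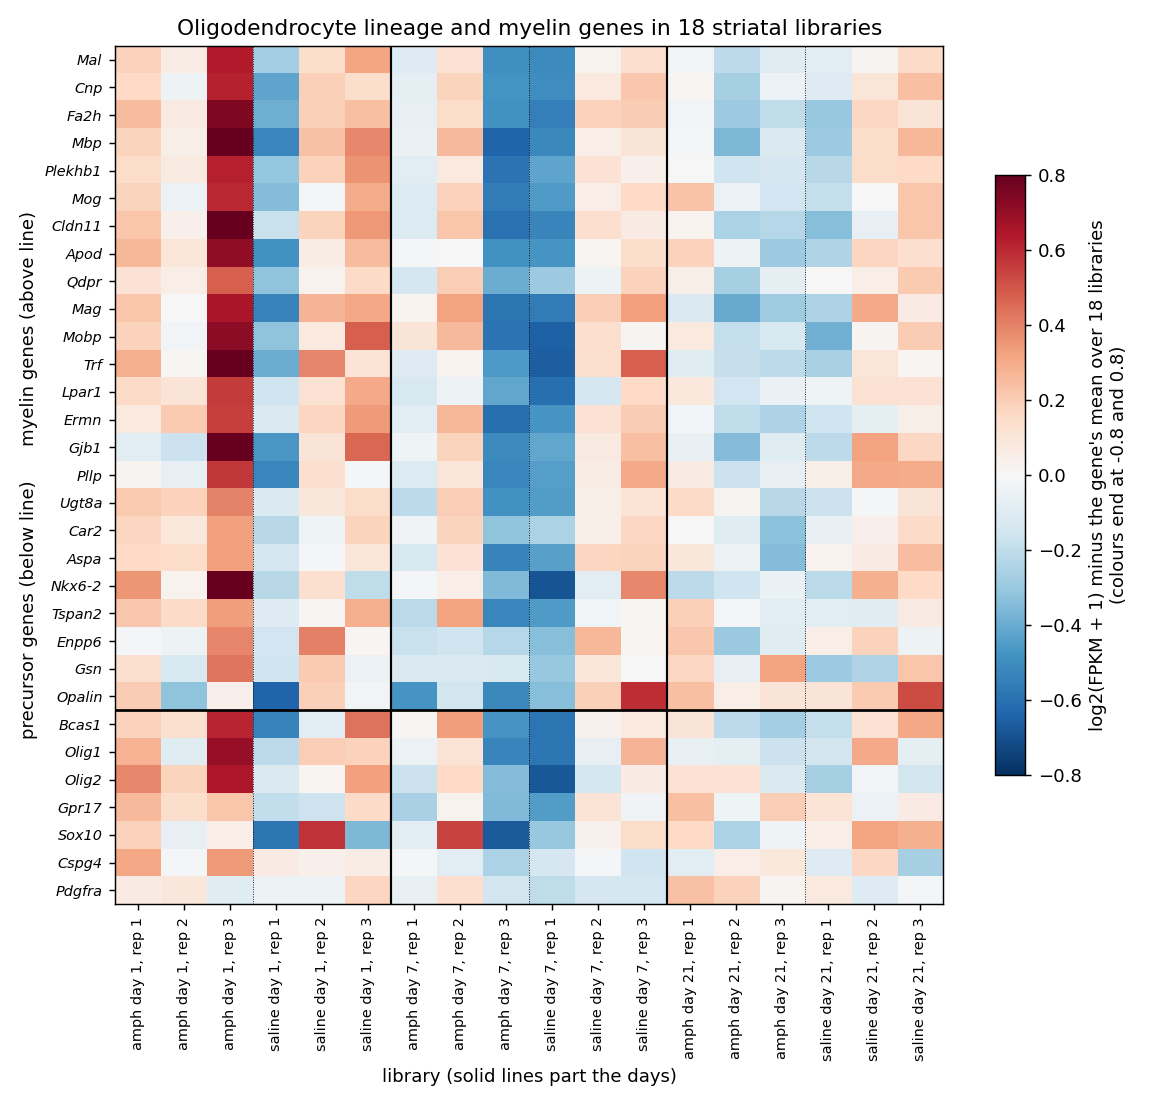
Log2(FPKM + 1) of each gene (rows) in each library (columns, grouped by day, amphetamine left of saline), after subtraction of the gene's mean over the 18 libraries. Within each class, genes are ordered by how closely they follow the mean of the other myelin genes. Whole columns are red or blue, most of all the third amphetamine mouse of day 1 (highest for 26 genes) and the 2 lowest libraries of day 7, while Pdgfra in the bottom row stays pale.

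Mbp, which encodes myelin basic protein and compacts the membrane from its inner face, was the most abundant gene of the set at a mean of 854 FPKM over the 18 libraries. Mobp, another small basic protein of compact myelin, averaged 297 FPKM. Plekhb1, a pleckstrin-homology protein that is abundant in myelinating glia, averaged 137 FPKM, and Cnp, the myelin phosphodiesterase that keeps cytoplasmic channels open in the sheath, 107 FPKM. At the other end lay Cspg4, which encodes the NG2 proteoglycan, at 2.46 FPKM, and Enpp6, a phosphodiesterase of newly forming oligodendrocytes, at 2.61 FPKM. Among the precursor genes the order of mean level was Bcas1 (49.3 FPKM), Olig1 (38.7), Sox10 (19.8), Olig2 (8.07), Pdgfra (7.07), Gpr17 (5.55) and Cspg4. The widest range belonged to Nkx6-2, a homeobox regulator of myelin genes, with 3.78 to 12.6 FPKM, a ratio of 3.34, and the narrowest to Pdgfra, with 5.98 to 8.45 FPKM, a ratio of 1.41.

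Mbp had 936, 857 and 1486 FPKM in amphetamine mice, against 575, 975 and 1080.2 FPKM in saline mice on day 1. The day 7 values of Mbp were 797, 991 and 532 FPKM in amphetamine mice, against 578, 859 and 891 FPKM in saline mice. By day 21 they were 817, 643.8 and 765 FPKM in amphetamine mice, against 678, 912 and 995 FPKM in saline mice. The highest value was that of the third amphetamine mouse of day 1 and the lowest that of the third amphetamine mouse of day 7, and the groups overlapped on each day. Mobp had 329, 286 and 475 FPKM in amphetamine mice, against 231, 306 and 404 FPKM in saline mice on day 1. Its values on day 7 were 311, 347 and 192 FPKM in amphetamine mice, against 184, 319 and 295 FPKM in saline mice, and on day 21 306, 254 and 267 FPKM in amphetamine mice, against 222, 294 and 334 FPKM in saline mice. The same mice stood at the top and near the bottom as for Mbp, with the first saline mouse of day 7 lowest, and the groups overlapped on each day. Plekhb1 had 149, 141 and 208 FPKM in amphetamine mice, against 108, 153 and 172 FPKM in saline mice on day 1. Its day 7 values were 126, 142 and 88.8 FPKM in amphetamine mice, against 100.2, 146 and 138 FPKM in saline mice, and those of day 21 134, 120.4 and 122 FPKM in amphetamine mice, against 115, 149 and 149.9 FPKM in saline mice. The groups of Plekhb1 overlapped on each day as well.

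**Figure D2:**
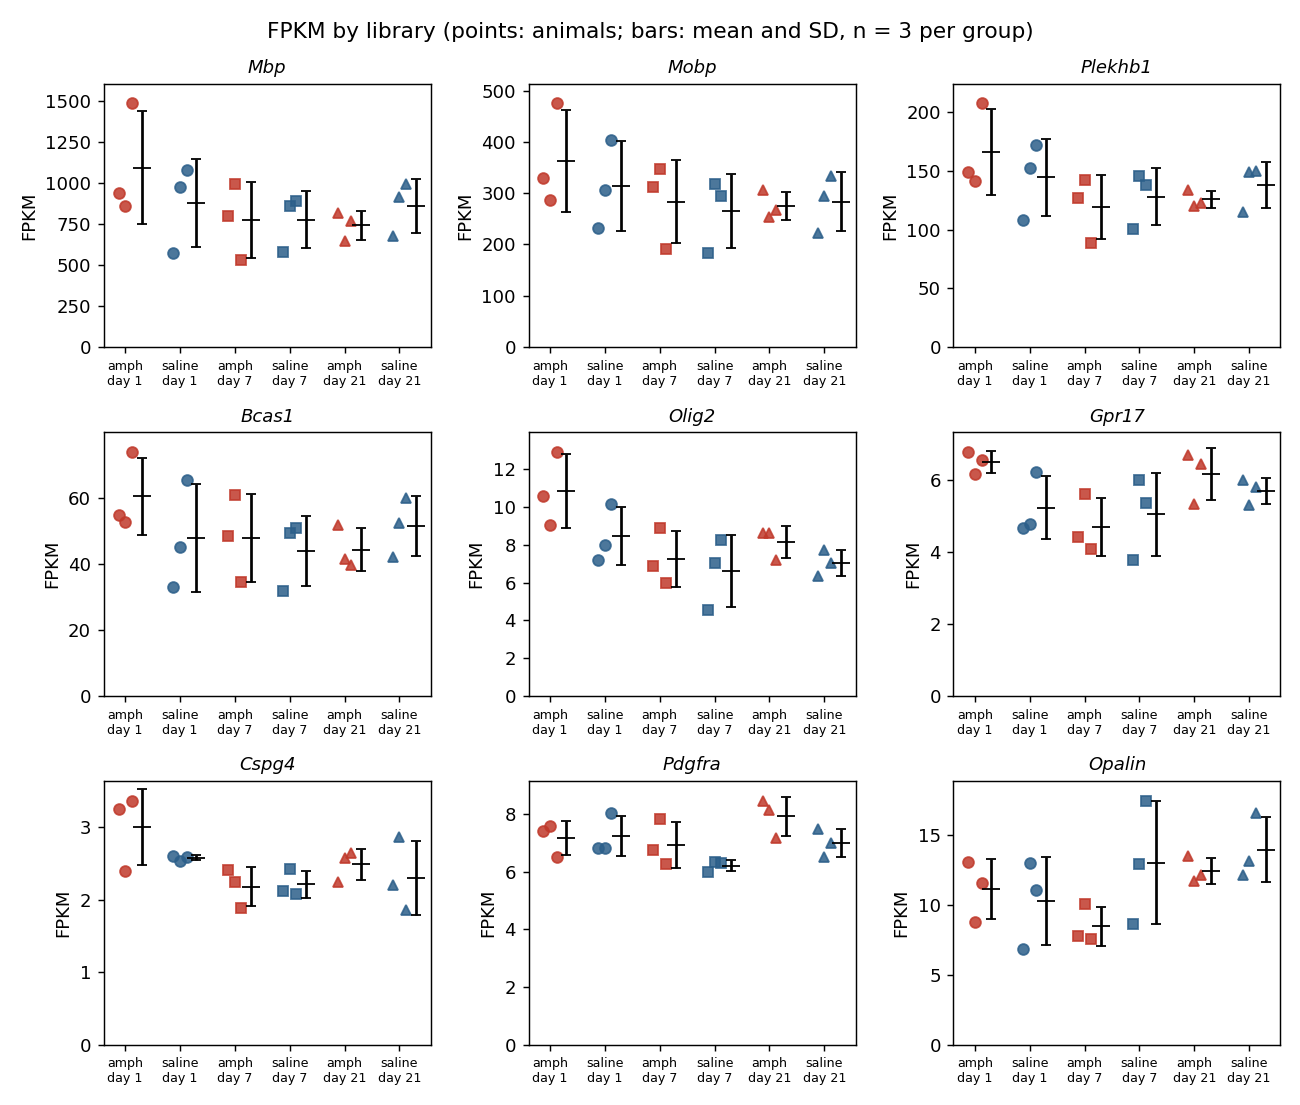
FPKM (vertical axes, from 0) of 9 genes in each mouse, by day and treatment, with amphetamine in red to the left of saline in blue. Points are mice and black bars the mean and SD of 3 mice. For Mbp the third amphetamine mouse of day 1 reaches 1486 FPKM and the third amphetamine mouse of day 7 lies at 532 FPKM, whereas Pdgfra stays between 5.98 and 8.45 FPKM.

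The myelin genes moved together from mouse to mouse. Over the 18 libraries the median Pearson correlation between pairs of myelin genes was 0.85, and 212 of 276 pairs lay above 0.7. For pairs of precursor genes the median was 0.54, with 4 of 21 pairs above 0.7, and for pairs of a myelin and a precursor gene it was 0.61, with 67 of 168. The first principal component held 81.6% of the variance of the myelin genes and 58.3% of that of the precursor genes. Pair correlations were not computed for all genes. On another measure, the correlation of each gene with the mean of the myelin genes, all genes tested had a median of 0.16. Of these 13975 genes, the members included, 690 lay above 0.7. These are descriptions over 18 libraries, whose points share the library preparation and the FPKM scaling. Over all 31 genes the median pair correlation was 0.80, and the first principal component held 74.9% of the variance. Counts of the 31 genes in the comparisons below are therefore not counts of independent observations. The median SD over the 18 libraries was 0.28 on the log2 scale for the 31 genes and 0.14 for all genes tested. The groups held a median of 31.3% of the variance of the 31 genes and 32.0% of that of all genes tested. Small groups hold a share of the variance even where they do not differ, and that share was not computed. These percentages therefore do not tell how much of the spread goes with the groups. They show only that the 31 genes lay close to all genes tested on this measure.

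Single genes followed that shared movement to different degrees. Mal, a proteolipid of compact myelin, and Cnp each correlated at 0.98 with the mean of the other myelin genes. Fa2h, the hydroxylase that makes the 2-hydroxylated fatty acids of myelin galactolipids, also reached 0.98, and Mbp 0.97. The slope on the myelin mean, in log2 units of the gene per log2 unit of the mean, was 1.40 for Mbp and 1.33 for Mag, the adhesion molecule that faces the axon, so these varied more than the average myelin gene. It was 0.64 for Car2, the cytosolic carbonic anhydrase, which varied less. Gsn, the actin-severing protein gelsolin, which other cell types also make, correlated at 0.60, and Opalin, a transmembrane sialoglycoprotein of mature oligodendrocytes, at 0.57. After the mean of each group was taken off, Opalin stood at 0.80 and Gsn at 0.64. Opalin thus followed the myelin mean more closely within groups than over all libraries.

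Among the precursor genes, Bcas1 and Olig1 followed the myelin mean as closely as many myelin genes did, at 0.93 each, and Olig2 followed at 0.82. Gpr17 correlated at 0.69, Sox10 at 0.63 and Cspg4 at 0.49. Pdgfra stood at 0.18 with a slope of 0.09, and at -0.23 without the 2 libraries farthest from the median myelin level. The mean of the 7 precursor genes correlated with the mean of the 24 myelin genes at r = 0.94 (Spearman's rho 0.83), and at 0.89 without those libraries, which were the third amphetamine mouse and the first saline mouse of day 7. Within the precursor genes, the correlation with myelin thus ran from 0.18 for Pdgfra to 0.93 for Bcas1 and Olig1.

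**Figure D3:**
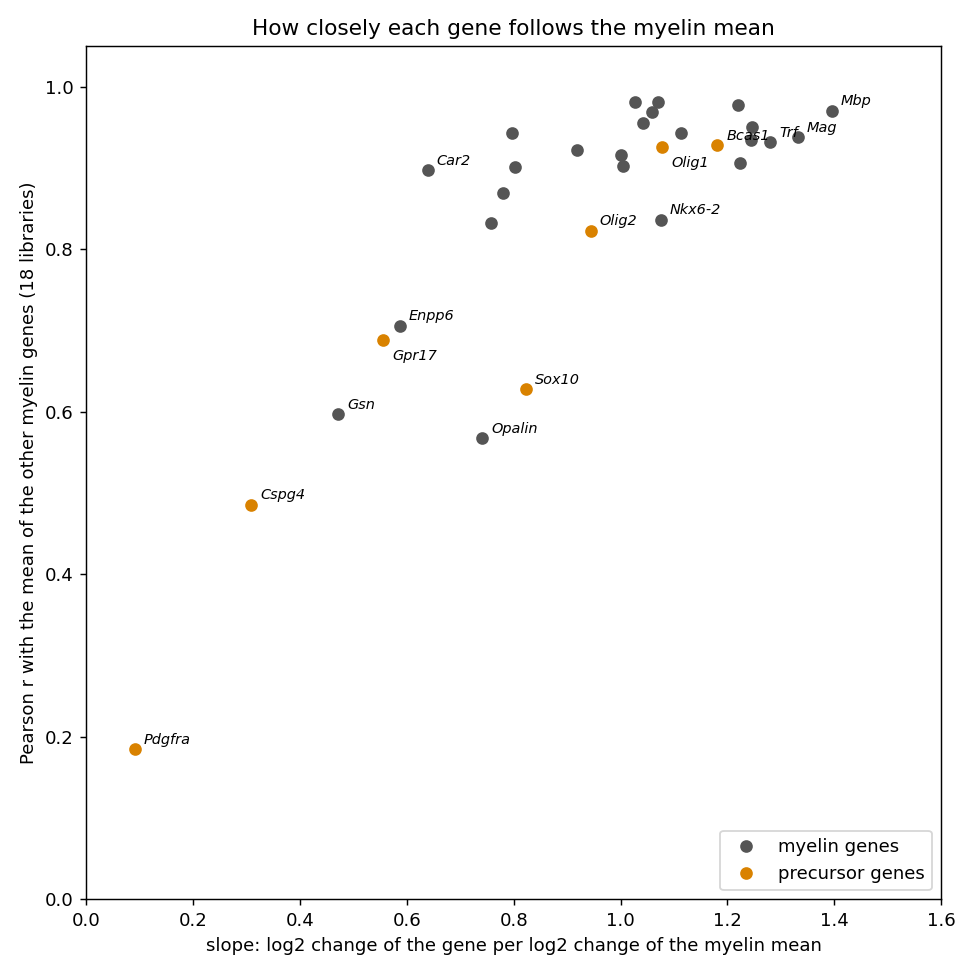
Each gene's Pearson correlation with the mean of the other myelin genes over 18 libraries (vertical) against its slope on the myelin mean (horizontal, log2 per log2), myelin genes in grey and precursor genes in orange, with selected names. Bcas1 and Olig1 lie among the myelin genes at 0.93, and Pdgfra lies apart in the lower left corner at 0.18 with a slope of 0.09.

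Because the genes moved together, the sequence just before their start sites was examined for short motifs of the factors in the set. SOX factors such as SOX10 bind a 6-base core, searched here as ACAAAG and ACAATG, and OLIG factors bind E-boxes, searched as CAGCTG and CAGATG. Both strands were read, and no match of one motif overlapped a match of another. Promoter sequences from RefSeq (build GRCm38.p6, not the mm9 build named for the expression files) were matched for 23 of the 31 genes, with 34 start sites. In the windows of 250 bases before the start, at least 1 SOX core stood in 44.1% of these 34 promoters and in 25.2% of all 32851 promoters of the same length. An E-box stood in 32.4% of the 34 and in 25.5% of all. A SOX core stood in 14 of the 31 promoters of myelin genes and in 1 of the 3 of precursor genes. The 31 promoters came from 20 genes and the 32851 from 27025 genes, so several starts of a gene count separately. No share per gene was computed. The 250 bases before the start are shown for a pair of myelin genes that followed the myelin mean closely (Mobp and Cnp), for Olig2, and for Pdgfra, which did not follow it. These genes were picked by hand and do not stand for the other promoters. Whether motifs go with the shared movement was not tested. Capitals mark the motifs, on whichever strand they were read.
Mobp (chr9:120149492-120149741, + strand): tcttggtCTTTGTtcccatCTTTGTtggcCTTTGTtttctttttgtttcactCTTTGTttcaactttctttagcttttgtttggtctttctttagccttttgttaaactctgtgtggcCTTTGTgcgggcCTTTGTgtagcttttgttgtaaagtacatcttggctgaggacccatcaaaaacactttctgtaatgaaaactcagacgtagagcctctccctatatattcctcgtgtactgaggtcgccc
Cnp (chr11:100574689-100574938, + strand): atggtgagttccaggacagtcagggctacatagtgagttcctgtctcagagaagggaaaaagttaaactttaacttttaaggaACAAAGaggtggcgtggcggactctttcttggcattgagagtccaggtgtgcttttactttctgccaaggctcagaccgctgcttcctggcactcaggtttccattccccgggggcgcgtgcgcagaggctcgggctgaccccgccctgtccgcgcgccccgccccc
Olig2 (chr16:91225300-91225549, + strand): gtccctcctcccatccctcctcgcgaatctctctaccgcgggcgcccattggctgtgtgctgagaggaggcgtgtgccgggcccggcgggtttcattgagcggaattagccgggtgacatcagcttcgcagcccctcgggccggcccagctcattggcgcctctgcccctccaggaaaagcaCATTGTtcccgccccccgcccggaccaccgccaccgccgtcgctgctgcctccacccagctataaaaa
Pdgfra (chr5:75152001-75152250, + strand): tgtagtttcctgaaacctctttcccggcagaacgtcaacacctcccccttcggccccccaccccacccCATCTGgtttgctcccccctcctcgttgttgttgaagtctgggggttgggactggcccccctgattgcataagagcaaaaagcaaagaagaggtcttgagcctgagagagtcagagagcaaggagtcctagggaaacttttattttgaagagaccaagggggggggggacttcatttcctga
The Mobp window held 6 SOX cores, all read as CTTTGT on the strand shown, at 243, 231, 221, 198, 132 and 120 bases before the start. Cnp held 1, at 167 bases, and Olig2 1, at 68 bases. Pdgfra held none of the SOX letters and 1 E-box, at 182 bases before the RefSeq start, which, unlike the starts of the other genes shown, was not found in the reference transcripts. These matches describe letters in a window and were not tested as sites.

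On day 1, after amphetamine, 30 of the 31 genes had higher means than after saline, and none passed the threshold (limma, smallest adjusted p = 0.674). Of all genes tested, 0.00716% passed, and 64% were higher on that day. None of the 31 had an unadjusted p under 0.05, against 7.25% of all genes. The median log2 difference was 0.23 for the myelin genes and 0.23 for the precursor genes, against 0.05 for all genes tested. With median-of-ratios scaling, under which 49.6% of all genes were higher, 29 of the 31 were higher and the myelin median was 0.18. The groups did not overlap for 2 genes, both higher after amphetamine, Ugt8a and Aspa, against 7.73% of all genes.

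The size of the day 1 difference rested on single mice. Without the third amphetamine mouse 29 genes were higher, with a myelin median of 0.09. Without the first saline mouse, which leaves mice of 1 label number range, 26 were higher, with a median of 0.08. With the range as a covariate the median was 0.18. Of the 31 single differences, 24 moved by over 1.5 times or changed sign without the third amphetamine mouse, and 26 did without the first saline mouse. Without the third saline mouse the median was 0.36, and without the second amphetamine mouse it was 0.35. The mean astrocyte level moved the same way: 12 of 15 astrocyte markers were higher after amphetamine on day 1, against 64% of all genes. Their mean log2 level lay at 5.09 to 5.32 in amphetamine mice and 4.83 to 5.08 in saline mice. Genes of choroid plexus and ependyma, tissue next to the striatum, were also higher, 7 of 7 tested, with a mean log2 level of 2.37 to 3.00 in amphetamine mice and 1.68 to 2.09 in saline mice. Of their 12 markers Folr1, Kcne2, Otx2, Ccdc153, Tmem212, Dynlrb2 and Mia1 were listed at 0 in at least 1 library. Markers of microglia were higher on day 1 for 11 of 14, of endothelium for 9 of 12 and of blood for 3 of 3. Markers of striatal projection neurons were higher for 9 of 16, and those of cortical neurons for 2 of 8 tested. The part of any of these cell types in the day 1 values was not tested.

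On day 7, 25 of the 31 genes were lower after amphetamine, against 47.9% of all genes, and 6 were higher. None passed the threshold (limma, smallest adjusted p = 1; 0.0215% of all genes passed), and 1, Opalin, had an unadjusted p under 0.05, against 4.92% of all genes. The medians were -0.06 for myelin genes, -0.02 for precursor genes and 0.00 for all genes tested. No gene of the set had groups without overlap, which 5.45% of all genes had with higher and 4.86% with lower values after amphetamine. The direction itself depended on the mouse left out: 27 genes were higher without the third amphetamine mouse (myelin median 0.10), 19 without the second saline mouse (0.00) and 24 without the third saline mouse (0.05). Conversely, 30 genes were lower without the first saline mouse (-0.27) and 30 without the second amphetamine mouse (-0.22). Astrocyte markers were higher after amphetamine for 11 of 15, against 51.5% of all genes. Their mean log2 level lay at 4.74 to 5.18 in amphetamine mice and 4.70 to 5.01 in saline mice. All 7 tested genes of choroid plexus and ependyma were higher, at 1.66 to 2.45 in amphetamine mice and 1.204 to 1.55 in saline mice, without overlap. The part of either in the day 7 values was not tested.

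On day 21, 23 of the 31 genes were lower after amphetamine, 20 of them myelin genes. The myelin median was -0.13, the precursor median 0.09 and that of all genes -0.02, of which 56.6% were lower. None of the 31 passed the threshold (limma, smallest adjusted p = 0.869; 0% of all genes passed), and none had an unadjusted p under 0.05, against 5.5% of all genes. The count of lower genes stayed between 21 and 26 whichever single mouse was left out, and the myelin median between -0.23 and -0.08. The precursor median was -0.02 with a filter of 5 FPKM and -0.01 without the third saline mouse of day 21. No gene of the set had groups without overlap, against 4.76% of all genes with higher and 7.51% with lower values after amphetamine. Astrocyte markers were lower after amphetamine for 9 of 15, with a difference of -0.08 in their mean log2 level. Genes of choroid plexus and ependyma were higher for 5 of 7 tested, against 42.7% of all genes, with a difference of 0.07. Groups overlapped in both means. The part of either in the day 21 values was not tested.

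**Figure D4:**
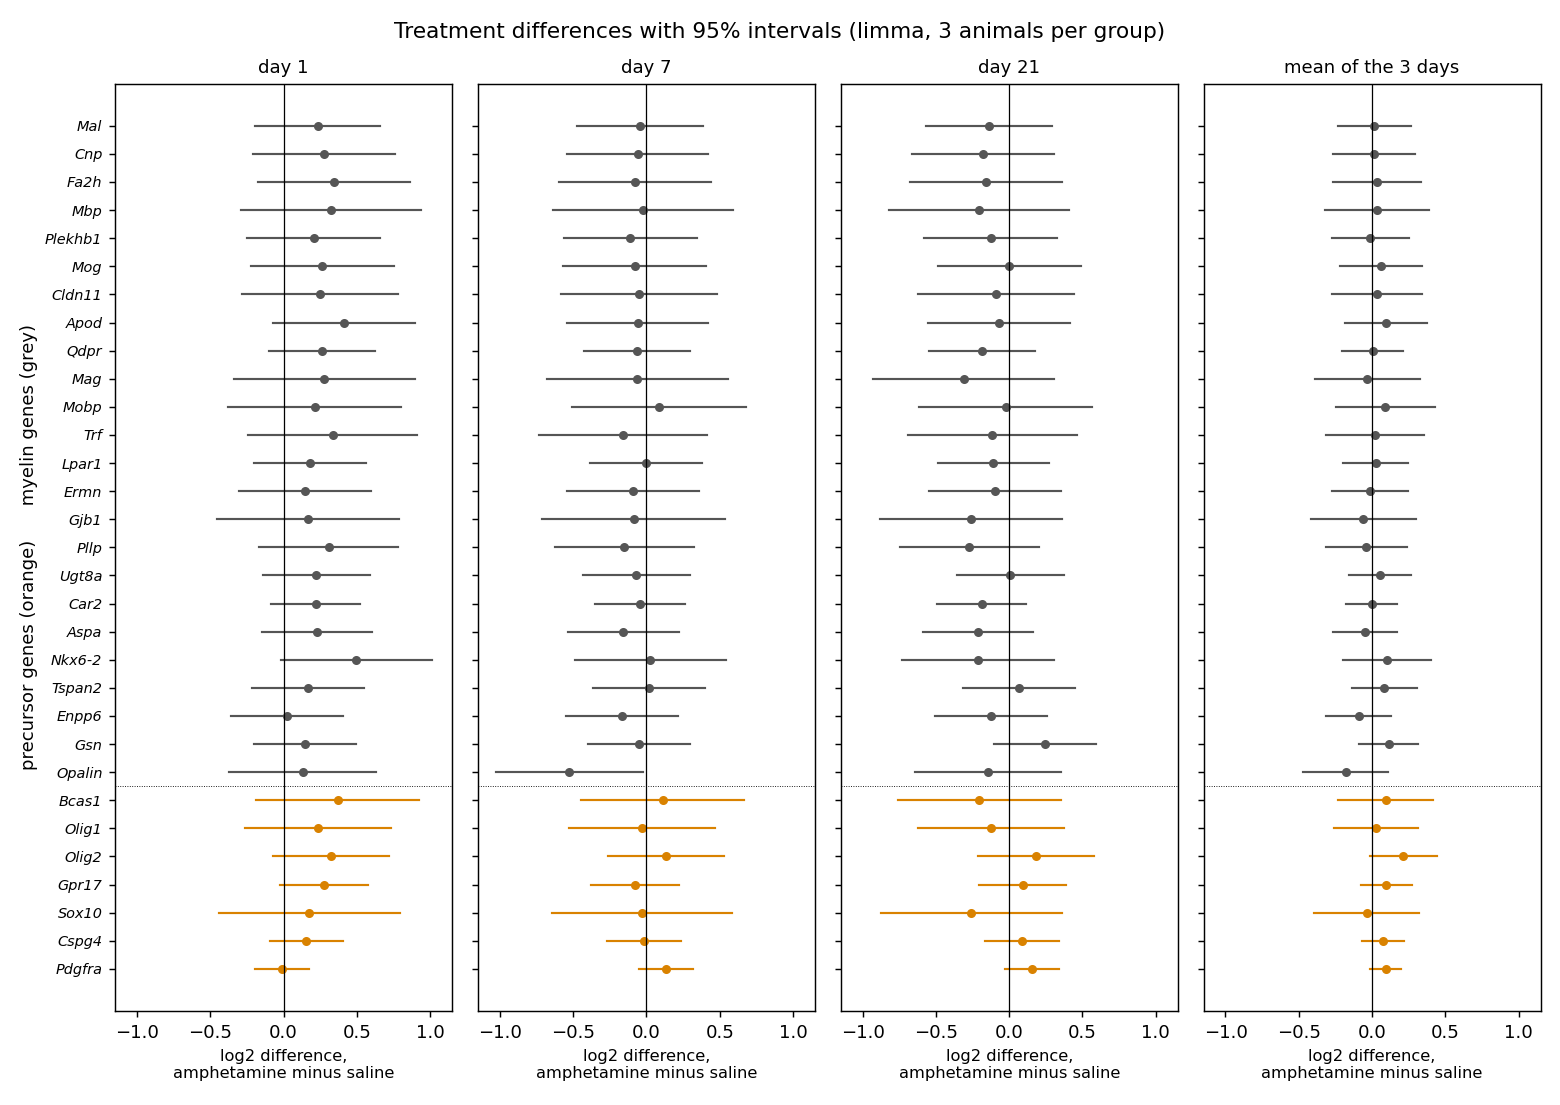
Log2 difference of each gene, amphetamine minus saline (horizontal), on days 1, 7 and 21 and as the mean of the 3 days, with 95% intervals from limma, myelin genes in grey and precursor genes in orange. On day 1 points lie right of 0 for 30 genes, on days 7 and 21 left of 0 for 25 and 23, and the interval of Opalin on day 7 is the single one that leaves out 0.

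Higher on day 1 and lower on days 7 and 21 was the sequence of signs of 20 of the 31 genes, 18 of them myelin genes, and of 19.9% of all genes tested. It was the sequence of 3 genes without the third amphetamine mouse of day 7, of 4 without the third saline mouse of day 7, of 11 without the second saline mouse of day 7 and of 16 to 23 without any other single mouse. The response on day 21 was below that on day 1 for 29 genes, with a median difference of -0.39 for myelin genes, against 62.6% of all genes. That median was -0.22 without the third amphetamine mouse of day 1 and -0.20 without the first saline mouse of day 1, with 29 genes below in both. The test of the difference between days, the treatment by day interaction, passed for none of the 31 (limma, smallest adjusted p = 0.775; 0% of all genes passed). At an unadjusted p under 0.05 it picked none of them, against 6.25% of all genes. The smallest unadjusted p values of that test belonged to Nkx6-2 (0.143), Car2 (0.158) and Opalin (0.174).

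Averaged over the 3 days, 21 genes were higher after amphetamine and 10 lower, against 55.6% of all genes that were higher, with medians of 0.02 for myelin genes, 0.09 for precursor genes and 0.01 for all genes tested. None passed the threshold (limma, smallest adjusted p = 0.97; 0.122% of all genes passed), nor had any an unadjusted p under 0.05, against 5.36% of all genes. The 95% intervals of the 31 mean differences, written as fold on the FPKM + 1 scale, all held 1 and together reached from 0.722 to 1.36. Those are the bounds that 9 mice per treatment allowed. For Mbp the mean difference was 0.03 ± 0.17 (SE) with an interval of -0.32 to 0.39. The sign of the myelin median was not fixed by these data, since it was negative in 7 of 26 alternatives, including those without the third amphetamine mouse of day 1 (-0.04) and without the first saline mouse of day 7 (-0.05).

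Among proteins of the myelin membrane and sheath, Opalin gave the smallest p of any treatment comparison of a single day. Opalin had 13.03, 8.78 and 11.6 FPKM in amphetamine mice, against 6.84, 12.96 and 11.04 FPKM in saline mice on day 1. On day 7 there were 7.79, 10.0 and 7.55 FPKM in amphetamine mice, against 8.65, 12.9 and 17.4 FPKM in saline mice. The day 21 values were 13.5, 11.7 and 12.1 FPKM in amphetamine mice, against 12.1, 13.1 and 16.5 FPKM in saline mice. The 3 amphetamine mice of day 7 lay low and the third saline mouse high, with overlap between the groups. The day 7 difference was -0.53 ± 0.23 (SE, interval -1.03 to -0.03, unadjusted p = 0.0408, limma adjusted p = 1). It was -0.30 without the third saline mouse of day 7.

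The other membrane and sheath genes are given by their log2 differences. Mag had a log2 difference of 0.28 on day 1, -0.06 on day 7 and -0.31 on day 21. Mog, which encodes a glycoprotein of the outermost lamella, had 0.26, -0.08 and 0.00 over the same days. Cldn11, the claudin of the tight junctions between lamellae, had 0.25, -0.05 and -0.09. Mal, Cnp, Ermn (a cytoskeletal protein of late oligodendrocytes), Gjb1 (the gap junction protein connexin 32) and Pllp (plasmolipin) lay between 0.15 and 0.31 on day 1, and between -0.27 and -0.10 on day 21. Tspan2, a tetraspanin of early myelination, was one of 2 genes with positive differences on each day (0.17, 0.02 and 0.06), the other being Olig2. Pllp had 17.4, 16.3 and 25.8 FPKM in amphetamine mice, against 11.6, 18.9 and 16.96 FPKM in saline mice on day 1. For Pllp day 7 gave 15.8, 18.4 and 11.6 FPKM in amphetamine mice, against 12.3, 17.9 and 21.4 FPKM in saline mice, and day 21 gave 18.04, 15.1 and 16.3 FPKM in amphetamine mice, against 17.7, 21.3 and 21.3 FPKM in saline mice. The first saline mouse of day 1 was among the lowest, and the groups of Pllp overlapped on each day. None of the differences of these membrane and sheath genes passed the threshold.

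Ugt8a, which makes galactosylceramide, the main glycolipid of myelin, had 17.5, 17.2 and 20.0 FPKM in amphetamine mice, against 13.7, 16.04 and 16.7 FPKM in saline mice on day 1. Each amphetamine mouse lay above every saline mouse of that day, with a log2 difference of 0.22 ± 0.17 (SE, unadjusted p = 0.211, limma adjusted p = 0.716). For Ugt8a day 7 gave 12.9, 17.3 and 10.4 FPKM in amphetamine mice, against 10.7, 15.5 and 16.3 FPKM in saline mice, with overlap. Its day 21 values were 16.7, 15.2 and 12.7 FPKM in amphetamine mice, against 13.2, 14.9 and 16.2 FPKM in saline mice. Aspa, which frees acetate from N-acetylaspartate for lipid synthesis, likewise had 12.2, 12.1 and 13.8 FPKM in amphetamine mice, against 9.75, 10.7 and 11.6 FPKM in saline mice on day 1, without overlap. These were 2 of the 31 genes, against 7.73% of all genes that were higher without overlap on that day. For Aspa day 7 gave 9.81, 11.8 and 7.14 FPKM in amphetamine mice, against 7.75, 12.3 and 12.4 FPKM in saline mice, and day 21 gave 11.6, 10.5 and 8.26 FPKM in amphetamine mice, against 11.02, 11.3 and 12.99 FPKM in saline mice. On both later days Aspa was lowest in the third amphetamine mouse, and the groups overlapped. On day 21 the difference was 0.01 for Ugt8a and -0.21 for Aspa, with overlap in both. Fa2h had 15.3, 13.4 and 21.9 FPKM in amphetamine mice, against 9.43, 14.6 and 15.2 FPKM in saline mice on day 1. For Fa2h day 7 gave 12.1, 14.1 and 8.79 FPKM in amphetamine mice, against 8.35, 14.6 and 14.7 FPKM in saline mice, and day 21 gave 12.5, 10.2 and 10.9 FPKM in amphetamine mice, against 10.1, 14.4 and 13.7 FPKM in saline mice. Its groups overlapped on each day, with differences of 0.34, -0.08 and -0.16 on days 1, 7 and 21. Enpp6 had 2.53, 2.46 and 3.68 FPKM in amphetamine mice, against 2.20, 3.72 and 2.61 FPKM in saline mice on day 1. For Enpp6 day 7 gave 2.15, 2.20 and 2.04 FPKM in amphetamine mice, against 1.81, 3.29 and 2.60 FPKM in saline mice, and day 21 gave 3.15, 1.91 and 2.34 FPKM in amphetamine mice, against 2.70, 3.05 and 2.47 FPKM in saline mice. One mouse of each treatment on day 1 lay near 3.7 FPKM, and the groups of Enpp6 overlapped on each day.

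Car2 had 86.7, 81.8 and 96.8 FPKM in amphetamine mice, against 65.9, 75.2 and 87.1 FPKM in saline mice on day 1. For Car2 day 7 gave 75.4, 87.2 and 61.3 FPKM in amphetamine mice, against 64.4, 79.4 and 86.4 FPKM in saline mice, and day 21 gave 77.3, 72.0 and 61.0 FPKM in amphetamine mice, against 74.0, 79.4 and 85.6 FPKM in saline mice. The second amphetamine mouse and the third amphetamine mouse of day 21 were the lowest of that day, and the groups overlapped. Its day 21 difference was -0.19 ± 0.14 (SE, unadjusted p = 0.21, limma adjusted p = 0.878), and -0.09 without the third amphetamine mouse. Apod, a lipid-binding lipocalin of glia, had 40.5, 36.0 and 55.5 FPKM in amphetamine mice, against 23.8, 35.0 and 40.3 FPKM in saline mice on day 1. For Apod day 7 gave 33.3, 33.6 and 23.7 FPKM in amphetamine mice, against 23.9, 34.0 and 37.2 FPKM in saline mice, and day 21 gave 38.3, 32.6 and 27.3 FPKM in amphetamine mice, against 28.3, 37.9 and 36.9 FPKM in saline mice. The first saline mouse of day 1 was far below the other mice of that day, and the day 1 difference was 0.41 ± 0.23 (SE, unadjusted p = 0.0896, limma adjusted p = 0.676). It was 0.24 without the third amphetamine mouse and 0.20 without the first saline mouse.

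Gsn departed from most myelin genes on day 21. Gsn had 19.5, 16.2 and 24.2 FPKM in amphetamine mice, against 15.8, 20.7 and 17.1 FPKM in saline mice on day 1. For Gsn day 7 gave 16.4, 16.3 and 16.3 FPKM in amphetamine mice, against 14.3, 19.1 and 17.8 FPKM in saline mice, and day 21 gave 20.0, 16.98 and 22.5 FPKM in amphetamine mice, against 14.3, 14.9 and 20.9 FPKM in saline mice. The third amphetamine mouse of day 21 was highest and the first saline mouse lowest on that day, with overlap. Its day 21 difference was 0.24 ± 0.16 (SE, unadjusted p = 0.153, limma adjusted p = 0.878), the highest of the 31 genes, and 0.15 without the third amphetamine mouse or the first saline mouse of that day. Trf, which encodes the iron carrier transferrin and is also transcribed in choroid plexus, had differences of 0.33, -0.16 and -0.11 on days 1, 7 and 21. Qdpr, which regenerates tetrahydrobiopterin and is not restricted to oligodendrocytes, had 88.5, 85.01 and 114 FPKM in amphetamine mice, against 65.1, 83.5 and 91.0 FPKM in saline mice on day 1. For Qdpr day 7 gave 74.4, 93.8 and 61.8 FPKM in amphetamine mice, against 66.7, 79.6 and 93.1 FPKM in saline mice, and day 21 gave 84.6, 67.8 and 77.7 FPKM in amphetamine mice, against 82.0, 84.7 and 94.8 FPKM in saline mice. Its groups overlapped on each day, with differences of 0.26, -0.06 and -0.19.

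Nkx6-2 had the largest day 1 difference of the set. Nkx6-2 had 8.89, 6.89 and 12.6 FPKM in amphetamine mice, against 5.65, 7.47 and 5.72 FPKM in saline mice on day 1. For Nkx6-2 day 7 gave 6.67, 7.03 and 5.05 FPKM in amphetamine mice, against 3.78, 6.29 and 9.10 FPKM in saline mice, and day 21 gave 5.70, 5.94 and 6.46 FPKM in amphetamine mice, against 5.66, 8.42 and 7.62 FPKM in saline mice. The third amphetamine mouse of day 1 was highest, and the second amphetamine mouse lay below the second saline mouse, so the groups overlapped. The day 1 difference was 0.50 ± 0.24 (SE, interval -0.02 to 1.01, unadjusted p = 0.0584, limma adjusted p = 0.674). It was 0.29 without the third amphetamine mouse of day 1, and without the third saline mouse Bcas1 had the largest day 1 difference. Lpar1, a receptor for lysophosphatidic acid found on maturing oligodendrocytes, had 9.43, 9.08 and 12.8 FPKM in amphetamine mice, against 7.40, 9.23 and 10.6 FPKM in saline mice on day 1. For Lpar1 day 7 gave 7.58, 8.10 and 6.03 FPKM in amphetamine mice, against 5.16, 7.53 and 9.49 FPKM in saline mice, and day 21 gave 8.95, 7.42 and 8.05 FPKM in amphetamine mice, against 8.15, 9.19 and 9.17 FPKM in saline mice. Lpar1 was highest in the third amphetamine mouse of day 1 and lowest in the first saline mouse of day 7, with overlap on each day and differences of 0.18 on day 1 and -0.11 on day 21.

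Of the precursor genes, Pdgfra encodes the receptor for the mitogen PDGF-AA and is also expressed by fibroblast-like cells of vessels. Pdgfra had 7.42, 7.57 and 6.50 FPKM in amphetamine mice, against 6.82, 6.82 and 8.04 FPKM in saline mice on day 1. For Pdgfra day 7 gave 6.73, 7.81 and 6.25 FPKM in amphetamine mice, against 5.98, 6.34 and 6.30 FPKM in saline mice, and day 21 gave 8.45, 8.13 and 7.16 FPKM in amphetamine mice, against 7.47, 6.50 and 7.00 FPKM in saline mice. It was the single gene of the set that was not higher after amphetamine on day 1 in FPKM as deposited (-0.01 ± 0.09, SE), and its difference was positive without the third amphetamine mouse (0.05) or the third saline mouse (0.06) of that day. The difference was 0.13 ± 0.09 (SE) on day 7 and 0.16 ± 0.09 (SE) on day 21, where 2 of 3 amphetamine mice lay above each saline mouse. The third amphetamine mouse of day 1, highest for 26 genes, had the lowest Pdgfra value of its day. The mean of the 3 days was 0.09 ± 0.05 (SE, interval -0.01 to 0.20, unadjusted p = 0.0833, limma adjusted p = 0.985).

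Cspg4, which is also expressed by pericytes, had 3.26, 2.40 and 3.37 FPKM in amphetamine mice, against 2.61, 2.54 and 2.59 FPKM in saline mice on day 1. For Cspg4 day 7 gave 2.41, 2.25 and 1.89 FPKM in amphetamine mice, against 2.13, 2.42 and 2.09 FPKM in saline mice, and day 21 gave 2.25, 2.58 and 2.65 FPKM in amphetamine mice, against 2.20, 2.86 and 1.86 FPKM in saline mice. The first amphetamine mouse and the third amphetamine mouse of day 1 were the highest of all, the saline mice of day 1 lay close together, and the groups overlapped on each day. Gpr17, the receptor of committed precursors, had 6.77, 6.15 and 6.56 FPKM in amphetamine mice, against 4.66, 4.78 and 6.23 FPKM in saline mice on day 1. For Gpr17 day 7 gave 4.41, 5.61 and 4.07 FPKM in amphetamine mice, against 3.77, 6.00 and 5.36 FPKM in saline mice, and day 21 gave 6.68, 5.32 and 6.45 FPKM in amphetamine mice, against 6.00, 5.29 and 5.79 FPKM in saline mice. The second amphetamine mouse of day 1 lay just below the third saline mouse, and the other amphetamine mice of that day lay above every saline mouse. The day 1 difference of Gpr17 was 0.28 ± 0.14 (SE, interval -0.02 to 0.57, unadjusted p = 0.0683, limma adjusted p = 0.674).

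Olig2 gave the smallest p of the mean over days. Olig2 had 10.6, 9.05 and 12.9 FPKM in amphetamine mice, against 7.21, 7.99 and 10.2 FPKM in saline mice on day 1. For Olig2 day 7 gave 6.89, 8.91 and 5.99 FPKM in amphetamine mice, against 4.55, 7.05 and 8.29 FPKM in saline mice, and day 21 gave 8.65, 8.63 and 7.19 FPKM in amphetamine mice, against 6.38, 7.75 and 7.02 FPKM in saline mice. On each day the highest value was that of an amphetamine mouse, and the groups overlapped on each day. The mean difference was 0.21 ± 0.11 (SE, interval -0.01 to 0.44, unadjusted p = 0.0647, limma adjusted p = 0.97). Olig1 had 46.2, 35.4 and 62.0 FPKM in amphetamine mice, against 32.6, 43.6 and 43.2 FPKM in saline mice on day 1. For Olig1 day 7 gave 36.6, 40.9 and 25.9 FPKM in amphetamine mice, against 25.0, 36.2 and 45.9 FPKM in saline mice, and day 21 gave 36.3, 35.9 and 33.5 FPKM in amphetamine mice, against 34.1, 46.9 and 35.8 FPKM in saline mice. The third amphetamine mouse of day 1 was highest and the first saline mouse of day 7 lowest. Its mean difference was 0.03 ± 0.13 (SE), with overlap on each day.

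Sox10 had 22.1, 18.4 and 20.1 FPKM in amphetamine mice, against 12.6, 29.3 and 14.8 FPKM in saline mice on day 1. For Sox10 day 7 gave 18.1, 28.6 and 11.7 FPKM in amphetamine mice, against 15.5, 19.8 and 21.4 FPKM in saline mice, and day 21 gave 21.6, 16.1 and 18.8 FPKM in amphetamine mice, against 20.0, 24.3 and 23.7 FPKM in saline mice. The second saline mouse of day 1 and the second amphetamine mouse of day 7 were the highest, and the groups overlapped on each day. Sox10 had a mean difference of -0.04 ± 0.17 (SE), the single negative one among the precursor genes. Bcas1 had 54.7, 52.6 and 73.9 FPKM in amphetamine mice, against 32.9, 45.1 and 65.4 FPKM in saline mice on day 1. For Bcas1 day 7 gave 48.4, 60.8 and 34.4 FPKM in amphetamine mice, against 31.7, 49.3 and 50.9 FPKM in saline mice, and day 21 gave 51.8, 41.5 and 39.7 FPKM in amphetamine mice, against 42.0, 52.4 and 59.9 FPKM in saline mice. Bcas1 was highest in the third amphetamine mouse of day 1 and lowest in the first saline mouse of day 7, as most myelin genes were high or low in those mice. Its mean difference was 0.09 ± 0.15 (SE), with overlap on each day.

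The balance of myelin and precursor genes was followed as the mean log2 level of the 24 myelin genes minus that of the 7 precursor genes, in log2 units. On day 1 it was 1.28, 1.32 and 1.57 in amphetamine mice, against 1.27, 1.42 and 1.42 in saline mice. Day 7 gave 1.34, 1.30 and 1.27 in amphetamine mice, against 1.30, 1.45 and 1.501 in saline mice. On day 21 amphetamine mice had 1.30, 1.21 and 1.26, against 1.27, 1.34 and 1.496 in saline mice. Amphetamine mice averaged 0.03 above saline mice on day 1, and the differences were -0.12 on day 7 and -0.11 on day 21, with overlapping groups throughout and a pooled SD between mice of 0.10. The day 1 difference was -0.07 without the third amphetamine mouse and -0.03 without the first saline mouse, so its direction turned. That of day 21 was -0.05 without the third saline mouse. With Bcas1, Sox10 and Olig1 left out of the precursor genes, the differences were 0.06 on day 1, -0.13 on day 7 and -0.25 on day 21, with a pooled SD of 0.18 and overlap on each day. The balance with all 7 precursor genes, at 0.10, varied less between mice than the myelin mean (pooled SD 0.27) or the precursor mean (0.19). That follows from how closely these 2 means moved together and is no separate result. Since the member genes were chosen with earlier results known, no p-value is given for the balance.

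**Figure D5:**
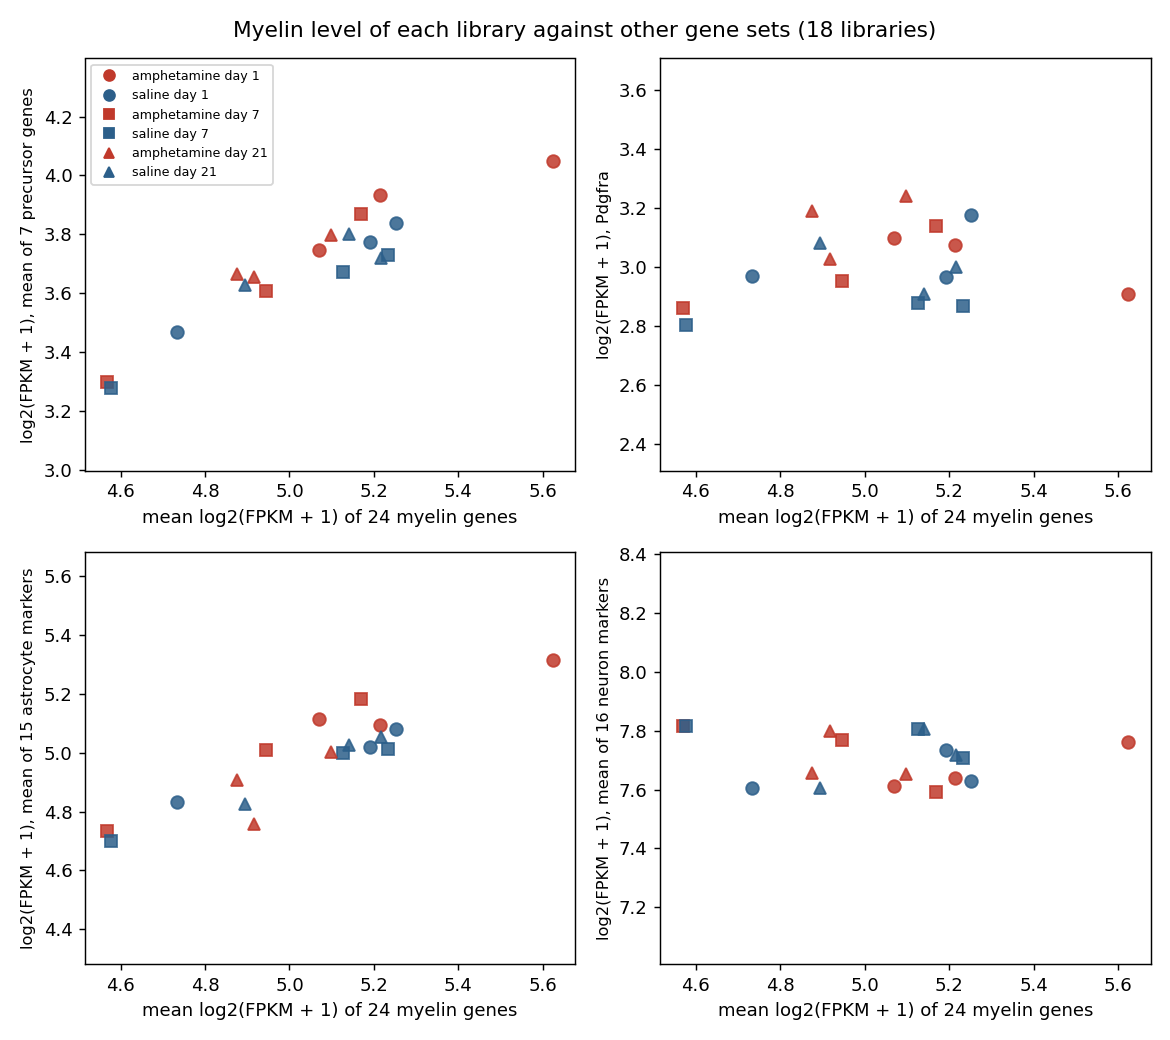
Each point is 1 of 18 libraries (amphetamine red, saline blue, shape by day), plotted by the mean log2(FPKM + 1) of the 24 myelin genes (horizontal) and by that of the 7 precursor genes, of Pdgfra alone, of 15 astrocyte markers or of 16 markers of striatal projection neurons (vertical, same span in each panel). The precursor mean and the astrocyte mean follow the myelin mean (r = 0.94 and 0.91), and Pdgfra and the neuron markers do not (r = 0.18 and -0.15).

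Between days, the amphetamine mice of day 7 had lower means than those of day 1 for all 31 genes, against 65% of all genes, with a myelin median of -0.40 and a precursor median of -0.35, against -0.05 for all genes tested. None passed the threshold (limma, smallest adjusted p = 0.452; 0% of all genes passed). At an unadjusted p under 0.05, 9 were lower (Ugt8a, Aspa, Mal, Olig2, Cspg4, Gpr17, Apod, Lpar1 and Plekhb1), against 7% of all genes. The groups did not overlap for 6 genes, Apod, Aspa, Lpar1, Olig2, Gpr17 and Enpp6, all lower on day 7, against 10.7% of all genes. That count of 9 was 1 without the third amphetamine mouse of day 1 and 0 without the third amphetamine mouse of day 7, but 15 without the second amphetamine mouse of day 1 and 18 without that of day 7. Day and label number range cannot be told apart here, since the groups share no range. With the range as a covariate, whose effect is then estimated from groups that hold several ranges, 28 genes were lower, the myelin median was -0.23 and the count was 1. Olig2 averaged 7.26 ± 1.497 FPKM in amphetamine mice of day 7 and 10.9 ± 1.95 FPKM in those of day 1 (SD, n = 3 each), with -0.52 ± 0.19 (SE) between them on the log2 scale and a limma adjusted p of 0.453.

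On day 21 the amphetamine mice had lower means than on day 1 for 29 genes, against 59.2% of all genes, with a myelin median of -0.36, a precursor median of -0.19 and a median of -0.03 for all genes. The exceptions were Opalin and Pdgfra. For 16 genes, among them Mbp, Plekhb1, Qdpr, Car2, Mal, Trf and Olig2, the day 21 values lay below all day 1 values, against 10.4% of all genes. None passed the threshold (limma, smallest adjusted p = 0.455; 0% of all genes passed), 3 had an unadjusted p under 0.05 and were lower, against 6.86% of all genes, and between 0 (without the third amphetamine mouse of day 1 or that of day 21) and 10 (without the second amphetamine mouse of day 1) did when a mouse was left out. With the label number range as a covariate 26 genes were lower, with a myelin median of -0.23 and a count of 0. The test over all 3 days in amphetamine mice passed for none of the 31 (limma, smallest adjusted p = 0.41; 0% of all genes passed), and had an unadjusted p under 0.05 for Gpr17 (0.0262), Olig2 (0.0369) and Cspg4 (0.0429), against 11.2% of all genes. These comparisons use the same amphetamine groups as the treatment comparisons and are not independent of them.

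In saline mice 27 genes were lower on day 7 than on day 1, against 53.9% of all genes, with a myelin median of -0.07. With the label number range as a covariate 14 were lower, with a median of 0.04. On day 21 15 genes were higher and 16 lower than on day 1, against 39.6% of all genes that were lower, with a myelin median of -0.01, and with the covariate 10 were lower. Pdgfra averaged 6.21 ± 0.20 FPKM in saline mice of day 7 and 7.23 ± 0.70 FPKM in those of day 1 (SD, n = 3 each), without overlap. That log2 difference was -0.19 ± 0.09 (SE, unadjusted p = 0.0481, limma adjusted p = 0.843). Cspg4 likewise lay below its day 1 values in each saline mouse of day 7. Of the 31 genes, these 2 were without overlap, against 5.24% of all genes lower in that way, and 1, Pdgfra, was lower at an unadjusted p under 0.05, against 3.21% of all genes. The test over all 3 days in saline mice passed for none of the 31 (limma, smallest adjusted p = 0.864; 0.00716% of all genes passed), none had an unadjusted p under 0.05, against 5.95% of all genes, and the smallest unadjusted p was that of Pdgfra (0.11).

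Genes of the same pathways that are not among the 31 were examined by list. Of 30 other myelin and mature oligodendrocyte genes, none passed the threshold in any comparison, 28 were higher after amphetamine on day 1 (median 0.19; 64% of all genes were higher), 22 were lower on day 7 (median -0.04; 47.9% of all genes) and 27 were lower on day 21 (median -0.12; 56.6% of all genes). Their median correlation with the myelin mean was 0.81, with 24 of 30 above 0.7, from 0.48 for Nfasc, which neurons also express, to 0.98 for Tmem88b. Gm98, listed by RefSeq as a synonym of Myrf, the transcription factor that drives myelin genes, stood at 0.95. Enpp2, the secreted enzyme autotaxin, had a day 1 difference of 0.41 ± 0.18 (SE, limma adjusted p = 0.674).

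Of 22 other precursor genes none passed, and their median correlation with the myelin mean was 0.50. Sox8, a SOX factor close to SOX10, had the smallest p of that list in the mean over days, with a difference of 0.22 ± 0.07 (SE, unadjusted p = 0.00536, limma adjusted p = 0.638), and correlated with the myelin mean at 0.39. Vcan, which encodes the proteoglycan versican, had a mean difference of 0.13 ± 0.06 (SE, limma adjusted p = 0.976).

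Lipid synthesis genes were mostly apart from the shared movement. Of 30 sterol and fatty acid synthesis genes none passed, 16 were higher on day 1 with a median of 0.03 (64% of all genes were higher, with a median of 0.05), and the median correlation with the myelin mean was 0.17. Of the 30, 4 lay above 0.7. These were Scd2 and Scd1, both stearoyl-CoA desaturases, at 0.93 and 0.86, Srebf1, a regulator of lipid synthesis, at 0.88, and Elovl1, a fatty acid elongase, at 0.82. Mvk, mevalonate kinase, had differences of 0.35 ± 0.11 (SE) on day 1 and -0.28 ± 0.11 (SE) on day 21 (limma adjusted p = 0.655 and 0.869). Of 18 sphingolipid and galactolipid genes none passed and the median correlation was 0.32, with Lass2, an older symbol of the ceramide synthase gene Cers2, at 0.91. Of 31 genes of signals and receptors that act on the lineage none passed, and the median correlation was 0.15. In that list Gpr37, a receptor of mature oligodendrocytes, stood at 0.95 and the thyroid hormone receptor gene Thrb at -0.65.

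Across all genes tested that are not among the 31, those with the closest relation to the myelin mean after group means were taken off included Plekhh1, Tmem88b, Sept4, Phldb1, Prr18 and Gpr37. With group means taken off, r lay between 0.97 and 0.98 for these genes. With group means kept, as in the correlations above, it lay between 0.95 and 0.98. For the precursor mean, again with group means taken off, they included Slc6a9, which encodes the glycine transporter GlyT1, at 0.98, Gpr37 at 0.98 and Matn4, an extracellular matrix protein, at 0.98. With group means kept, Slc6a9 stood at 0.87, Gpr37 at 0.92 and Matn4 at 0.87. The values for other cell types are with group means kept. The mean of 15 astrocyte markers correlated with the myelin mean at r = 0.91 (Spearman's rho 0.82), and at 0.85 without the 2 farthest libraries. Single astrocyte markers ranged widely: S100b, which oligodendrocytes also express, stood at 0.89, Gjb6 at 0.87 and Gfap at 0.72, while Aqp4 stood at 0.00 and Slc1a2 at -0.43. The means of microglial, choroid plexus and ependymal, endothelial, blood, cortical neuron and striatal projection neuron markers correlated at 0.46, 0.33, 0.16, -0.09, -0.15 and -0.15. What these cell types contribute to the spread between mice was not tested.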

How the data were processed

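Polyadenylated RNA of 18 striata was sequenced. The authors deposited 1 table of FPKM for 29942 gene names; per the submitters' processing notes, reads were handled with Bowtie on mm9, and the sources used here name no version, quantifying program, strand setting or annotation. Overlapping and antisense genes therefore cannot be told apart. The read depth behind each FPKM value is unknown.

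Values were tested as log2(FPKM + 1), pseudocount 1, with limma (version 3.58.1, R version 4.3.3): 13975 genes averaging 1 FPKM or more, 1 mean per group over all 18 libraries, a mean-variance trend, two-sided p, Benjamini-Hochberg adjustment over all genes tested and a threshold of 0.05. Standard errors and 95% intervals come from that fit. The script was tested on simulated data. Alternatives were scaling by median of ratios or by quantiles, a pseudocount of 0.1, no filter or one at 5 FPKM, array weights and a replicate block. Further ones were a covariate for the range of the sample's label number, cut by hand, each day fitted alone, and leaving out each library.

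The 31 genes and all lists were chosen with earlier results of these data known. Values of every mouse were printed for the 3 most abundant myelin genes, the 7 precursor genes and, per contrast, the 3 genes of smallest unadjusted p, with Ugt8a added after its day 1 values were seen. Other genes were named as the 2 of smallest p of a list or by their correlation. Older symbols were matched through RefSeq. Figures were drawn with matplotlib (version 3.10.9).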

Additional observations from a re-analysis of the deposited data

How the results depend on the processing

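In each of 7 comparisons (amphetamine against saline on days 1, 7 and 21 and averaged, the interaction of treatment with day, and the days within amphetamine and within saline mice) the number of the 31 genes past the threshold was 0 in every alternative run, 26 or 27 per comparison. The smallest adjusted p by limma over all of them was 0.161, in the day effect of amphetamine mice. The median of the precursor genes on day 7 lay between -0.10 and 0.20 when single libraries were left out, with 0.20 without the third amphetamine mouse of day 7. The myelin median lay between 0.08 and 0.36 on day 1, between -0.27 and 0.10 on day 7, and between -0.23 and -0.08 on day 21 over all alternatives. The balance of myelin and precursor genes lay between -0.07 and 0.08, between -0.18 and -0.07, and between -0.16 and -0.05 on the same days, negative on day 1 without the third amphetamine or the first saline mouse. With Bcas1, Sox10 and Olig1 left out of the precursor genes, an alternative chosen after seeing the data, it was 0.06, -0.13 and -0.25, the last of which lies outside the range given for day 21. Causes of these shifts were not tested. With the replicate number as a block the day 1 myelin median was 0.23 and the count past the threshold 0. Mice of the same number share no stated pairing, and the correlation of their deviations ran from -0.09 to 0.15, with the best match at the own number for 4 of 9 pairs. Every pair of day 21 was among those 4, at 0.11, 0.04 and 0.15, and the other was the first pair of day 1, at 0.10. Each amphetamine mouse had 3 saline mice to match, so some best matches at the own number arise without any pairing. On days 7 and 21 mice of the same number were also of the same label number range. The pairs of day 7 stood at -0.02, -0.05 and -0.09, none with its best match at the own number. Whether day 21 differs from the other days in this was not tested. Unknown depth and 3 mice per group limit the precision of each value.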
